A study of Mus musculus with 11 samples.

Results

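The solexa candidates are 44 probes of the array whose names begin with solexa, the name of an early short-read sequencing platform, followed by a pair of numbers. They were chosen by that name alone, from 655 probes in all, and the other 611 bear names of mouse microRNAs. Each solexa probe is identified here by its name only, and the chromosome field of all 44 holds 0, as it does for 21 of the 611 named probes. The arrays measured liver RNA of 11 mice, 5 WT and 6 LivPGC-1β, to ask which hepatic microRNAs differ when the coactivator PGC-1β is overexpressed in the liver. All mice were of the FVB/N strain (FVBN in the labels), 4 months old and fasted overnight. LivPGC-1β mice carry a transgene that raises PGC-1β selectively in the liver, WT mice carry none, and no source used here gives the promoter of the PGC-1β transgene or the sex of the mice. Each array holds total liver RNA of 1 mouse.

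MicroRNAs are short RNAs cut from hairpin precursors by Drosha and Dicer and loaded on Argonaute proteins, where bases near their 5′ end, the seed, pair with target mRNAs. Cloning and short-read sequencing of small RNA also recover fragments of tRNA, rRNA, snoRNA and repeats, so that a sequenced candidate counts as a microRNA only once a hairpin and its processing are shown. PGC-1β is a transcriptional coactivator known in the liver for mitochondrial gene expression, lipogenesis and lipoprotein secretion. The sources used here do not say which of these classes a solexa candidate belongs to, so no role is attached to any of them below.

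Each value is the mean brightness (intensity) of the beads of a probe, which was deposited without background subtraction. Intensities were quantile normalized over all 655 probes and are given on the log2 scale, where a difference of 1 is a 2-fold change. A probe counted as detected on an array when its detection p, computed against the chip's negative controls, was 0.01 or less. The 493 probes detected on at least 5 arrays were compared between genotypes with limma, with p-values adjusted over all 493 (Benjamini-Hochberg, threshold 0.05). Differences are LivPGC-1β minus WT, and ± gives the SD over mice. Single probes were also given an exact permutation p, two-sided, from the mean difference in each of the 462 splits of the 11 arrays. This permutation p cannot fall below 0.00216 and was not adjusted for the number of probes. The limma and permutation p-values set a difference against the spread between these mice, which limma takes in part from all 493 probes. In whole liver, fewer cells of a type and less RNA per cell cannot be told apart. Brightness also depends on the probe itself, so intensities of different probes do not rank RNA amounts.

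The arrays detected 444 to 508 of the 655 probes, and their median raw intensity ran from 619 to 1036. All 8 hepatocyte microRNAs of the marker list were detected on every array, with a summed linear level of 115232 to 117425 in WT and 114639 to 119361 in LivPGC-1β mice. The 5 leukocyte markers and the 4 bile duct markers were also detected on every array. Of the 4 muscle markers 1 was, and their summed level ran from 1447 to 40283 in WT and from 1600 to 5968 in LivPGC-1β mice. WT mice took chip positions 1 to 5 and LivPGC-1β mice positions 6 to 11, so that position and genotype cannot be told apart by these arrays alone. On 3 arrays solexa probes stood more than 0.5 apart from every other array. These were LivPGC-1β 4 and WT 5, where 4 probes each were high, and LivPGC-1β 6, where 2 were low. Differences of single probes that rest on these arrays are given with and without them.

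Most solexa candidates gave signal in the liver. Of the 44, 31 (70.5%) were detected on every array, 4 on some and 9 (20.5%) on none. Among the named microRNAs 400 of 611 (65.5%) were detected on every array, 120 (19.6%) on some and 91 (14.9%) on none. The share of probes detected on some arrays only was 9.09% for the solexa probes against 19.6% for the named ones, a description with no test. On single arrays 33 or 34 solexa probes were detected in WT and 32 to 35 in LivPGC-1β mice, so that the genotypes held about the same number. The 9 undetected probes were solexa-783-586, solexa-1780-267, solexa-2012-235, solexa-2307-205, solexa-2546-186, solexa-2572-184, solexa-3014-156, solexa-4327-106 and solexa-4983-92. Their log2 intensity lay between 7.84 and 8.46 over all arrays, their raw intensity between 225 and 369, and their smallest detection p was 0.0114. All 35 probes detected on any array entered the genotype comparison, as did 458 of the 520 named probes detected on any array, which makes 79.5% of all solexa probes and 74.96% of all named ones.

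**Figure D1:**
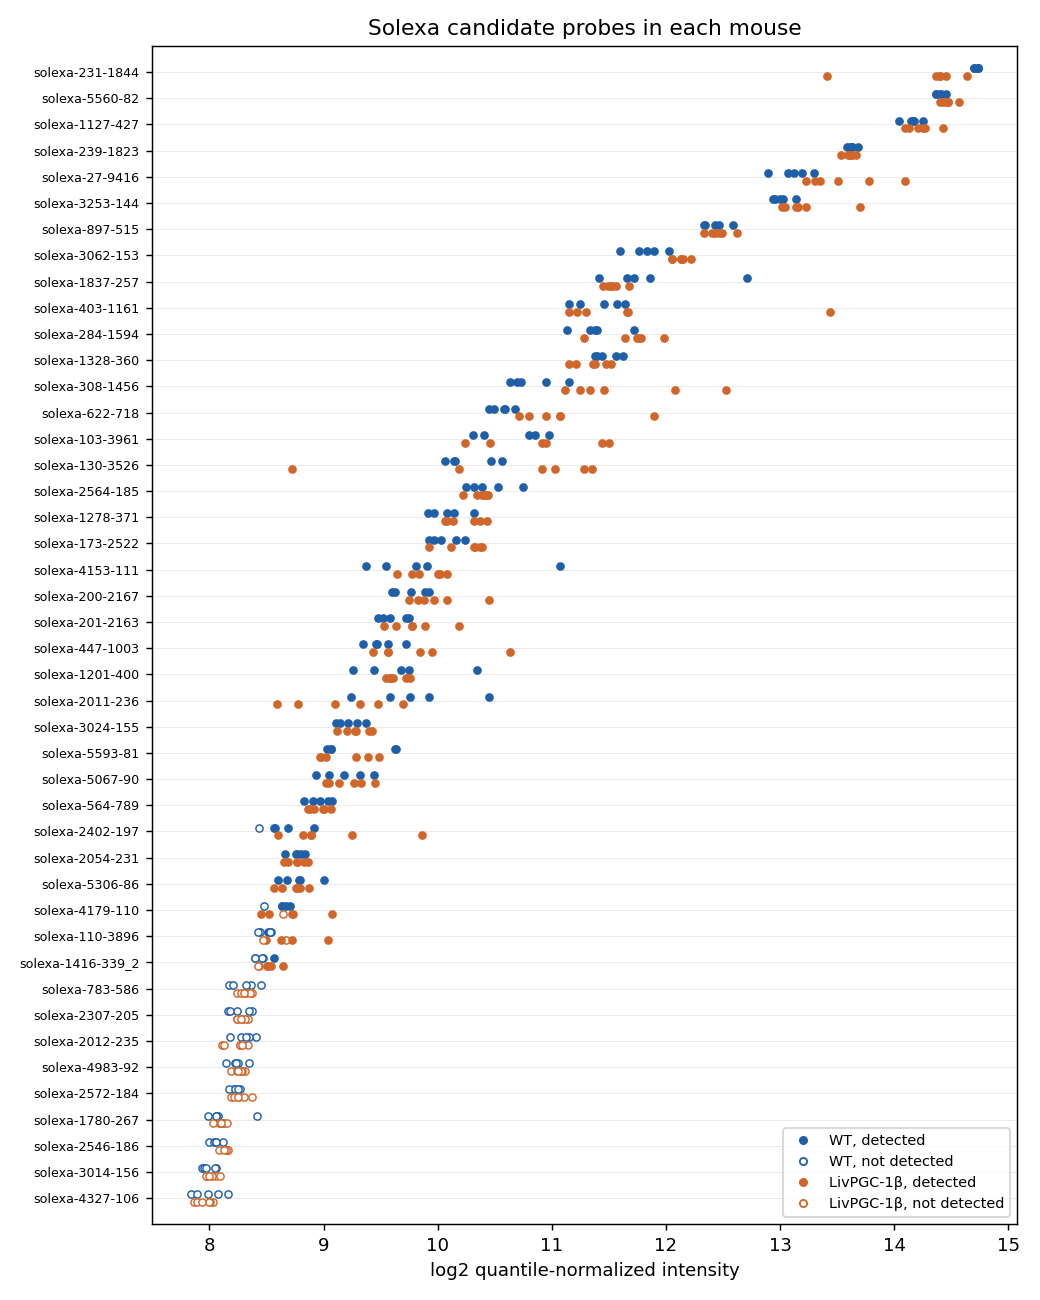
Log2 intensity (x axis, quantile normalized) of each of the 44 solexa probes (y axis) on the 5 WT arrays (blue) and the 6 LivPGC-1β arrays (orange). Filled points are detected at a detection p of 0.01 or less and open points are not; 31 probes have filled points only and 9 have open points only.

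The intensities of the solexa candidates covered a wide range. The median over the 44 probes was 9.70 (quartiles 8.64 to 11.45), close to the 9.64 of the named probes (quartiles 8.48 to 11.98). The mouse-cloned microRNAs (miR-680 to miR-721 and miR-1186 to miR-1199), 57 probes for microRNAs that also came out of sequencing of mouse small RNA, had a median of 9.22, and the 116 star arms, the other strand of known hairpins, one of 9.38. Among the 31 solexa probes detected on every array, means ran from 8.75 to 14.48, with 6 over 13, 7 between 11 and 13, 6 between 10 and 11 and 12 under 10. Of the 50 probes with the highest mean intensity on the chip, 3 were solexa probes. Together the solexa probes held 5.11% of the raw intensity on LivPGC-1β 6, 6.86% on LivPGC-1β 4 and 5.41% to 6.01% on the other arrays.

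The names themselves followed the intensity in part. The first number in the name ran from 27 to 5593 and the last from 81 to 9416, and the last never rose as the first rose, as in solexa-27-9416 and solexa-5593-81. Across the 44 probes the log2 of the last number and the mean intensity had a Pearson correlation of 0.34 and a Spearman correlation of 0.37, a description across probes that share the same 11 arrays. Of the 22 probes with the larger last numbers 19 were detected on every array and 1 on none, and of the other 22 these counts were 12 and 8. Exceptions lay on both sides. The name solexa-5560-82, with a last number of 82, belonged to one of the brightest probes, and solexa-110-3896 was detected on 6 of 11 arrays. The sources used here do not say what the numbers count.

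The brightest solexa candidate was solexa-231-1844, which stood 14th of all probes by mean intensity. Its WT arrays read 14.73, 14.70, 14.73, 14.70 and 14.73, and the LivPGC-1β arrays had a lowest value of 13.41, a median of 14.40 and a highest of 14.64. All 6 LivPGC-1β mice were below all 5 WT mice, and LivPGC-1β 6 was far below the others. WT mice averaged 14.72 ± 0.02 (SD, n = 5) and LivPGC-1β mice 14.28 ± 0.44 (SD, n = 6), which differed by −0.44 (standard error 0.185, 95% interval −0.85 to −0.03, 1.36-fold higher in WT). Limma gave an adjusted p of 0.358 (unadjusted 0.0370), and the exact permutation test gave p = 0.00433. Without LivPGC-1β 6 the difference was −0.28 (standard error 0.051, adjusted p = 0.0281, limma), and in that comparison 2 of 490 probes (0.408%) were called lower. Leaving out LivPGC-1β 4 and 6 together gave −0.25 (adjusted p = 0.0567, limma), and with chip position as a covariate the sign turned to 0.19 (standard error 0.307, adjusted p = 0.953, limma).

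The same separation stood in the values as deposited, before any normalization. Raw intensities of solexa-231-1844 were 29140, 28025, 27803, 27355 and 27514 in WT mice and 27077, 20197, 21679, 19726, 20217 and 11656 in LivPGC-1β mice 1 to 6. LivPGC-1β 1 was just below the WT range, the next 4 mice between 19726 and 21679 and LivPGC-1β 6 lowest. By rank on its array the probe was 4 or 5 in every WT mouse, and 6, 16, 21, 24, 21 and 79 in LivPGC-1β mice 1 to 6. The probe of miR-122, the abundant microRNA of hepatocytes that marks the tissue, lay at almost the same brightness in WT, with raw intensities of 27317 to 29039 there and 24450 to 28677 in LivPGC-1β mice. It stood at rank 4 or 5 on all 11 arrays, and its mean log2 intensity was 14.72 in WT and 14.73 in LivPGC-1β mice. Quantile normalization gives a rank the same value on every array, here 14.73 at rank 4 and 14.70 at rank 5. The steady log2 values of miR-122 and the WT SD of 0.02 of solexa-231-1844 follow from these ranks. They do not measure the spread of the raw intensities.

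**Figure D2:**
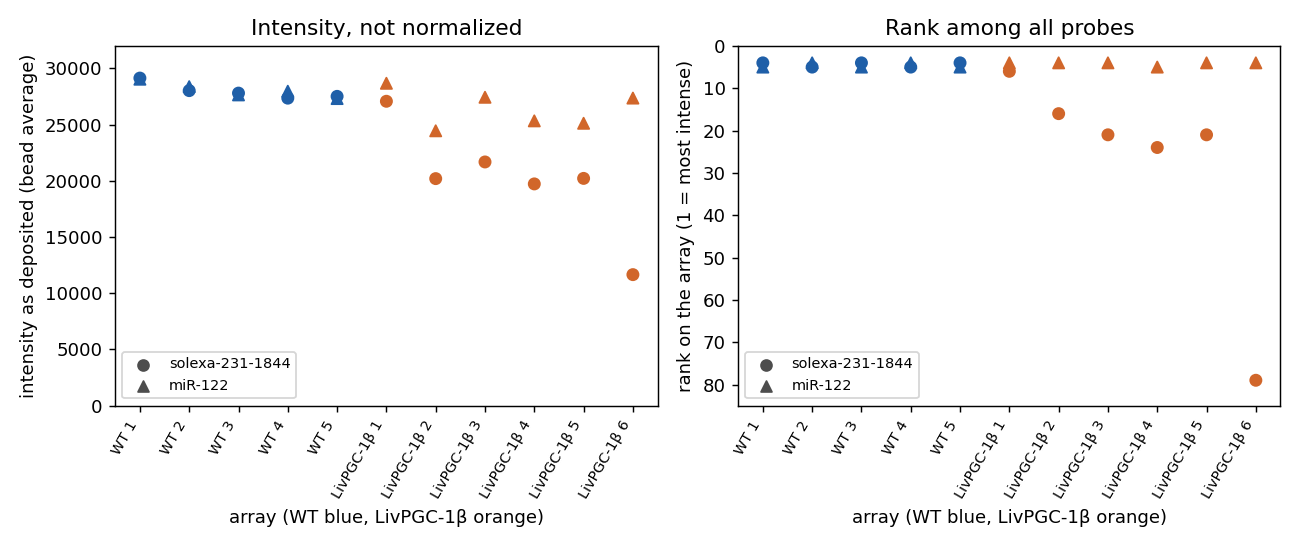
Raw intensity (left, y axis, as deposited) and rank among all probes of the same array (right, y axis, 1 is the most intense) of solexa-231-1844 (circles) and miR-122 (triangles) on each array (x axis, WT in blue, LivPGC-1β in orange). The solexa probe reads 27355 to 29140 in WT mice and 11656 to 27077 in LivPGC-1β mice, while miR-122 stays at rank 4 or 5.

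Among the other 4 of the 5 brightest solexa candidates, 3 had differences under 0.1 in size, and solexa-27-9416 had one of 0.43. For solexa-5560-82 the WT arrays read 14.37, 14.37, 14.40, 14.45 and 14.41, and the LivPGC-1β arrays 14.40 at the lowest, 14.46 at the median and 14.57 at the highest. The ranges overlapped, with a difference of 0.07 (95% interval −0.01 to 0.14, adjusted p = 0.443, limma). In solexa-1127-427 WT values were 14.25, 14.18, 14.14, 14.04 and 14.16 against a lowest of 14.10, a median of 14.23 and a highest of 14.43 in LivPGC-1β mice, and the difference was 0.08 (95% interval −0.06 to 0.21, adjusted p = 0.604, limma). The steadiest of the bright probes was solexa-239-1823, which read 13.63, 13.61, 13.63, 13.68 and 13.58 in WT mice and 13.53, 13.61 and 13.67 at the lowest, median and highest of the LivPGC-1β mice. Its difference was −0.02 (95% interval −0.09 to 0.05, adjusted p = 0.820, limma). These 3 values moved with the scaling. Scaling to the array median, which set the median of all probes tested at 0.11, gave 0.26 for solexa-5560-82, 0.29 for solexa-1127-427 and 0.15 for solexa-239-1823 (adjusted p = 0.262, 0.187 and 0.380, limma). Without normalization they were 0.01, 0.05 and −0.10, where the median of all probes was −0.14.

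No solexa probe passed the adjusted threshold. Of the 35 tested, 0 had an adjusted p under 0.05 from limma, where 10 of 493 probes (2.03%) did on the whole chip, 8 higher (1.62%) and 2 lower (0.406%), all of them named microRNAs. At an unadjusted p under 0.05 there were 7 of 35 solexa probes (20%), against 62 of 493 (12.6%) over all probes. Of these 7, 5 were higher in LivPGC-1β mice (background 50 of 493, 10.1%) and 2 lower (background 12 of 493, 2.43%). The genotypes did not overlap for 3 of the 35, solexa-3062-153 and solexa-622-718 on the higher side and solexa-231-1844 on the lower, beside 23 of 493 over all probes (4.67%, of which 17 or 3.45% higher and 6 or 1.22% lower). These shares were not tested against each other.

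Differences over the 35 probes ran from −0.63 to 0.80 with a median of 0.07 (quartiles −0.03 to 0.27), and 23 lay above 0. Over the named probes the median was 0.01, and 241 of 458 lay above 0. The median of all probes moved with the scaling, to −0.14 without normalization and to 0.11 with scaling to the array median. That of the solexa probes moved with it, to −0.09 and 0.16. The probes higher and lower at an unadjusted p under 0.05 then numbered 2 and 7, and 10 and 1, so the majority of higher values among the 35 turned without normalization. Of the 35 differences, 15 were under 0.1 in size. The 95% intervals reached a median of 0.24 to either side of the estimate, and this reach ran from 0.0681 to 0.957.

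**Figure D3:**
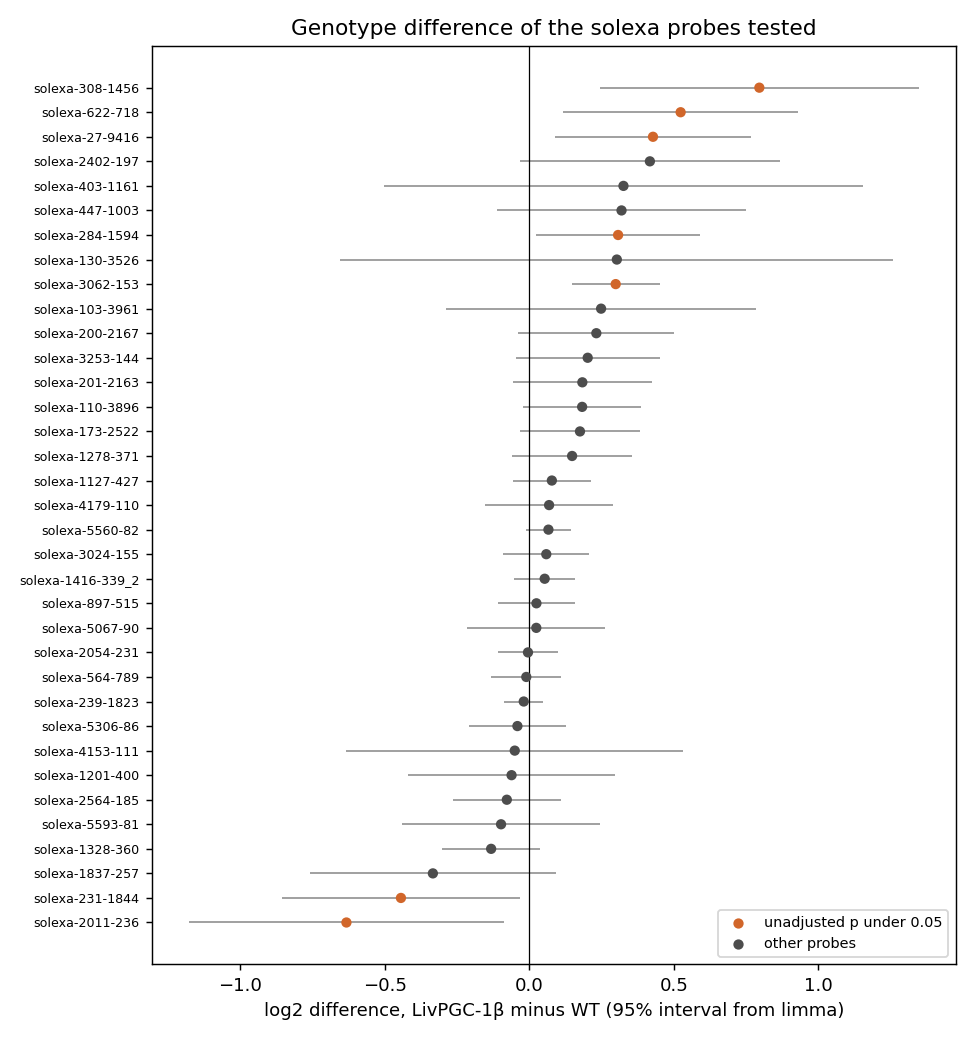
Genotype difference (x axis, log2, LivPGC-1β minus WT) of the 35 solexa probes tested (y axis), with 95% intervals from limma as bars. Orange points have an unadjusted p under 0.05, 5 on the higher and 2 on the lower side, and no adjusted p is under 0.05.

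The smallest p among the solexa candidates was that of solexa-3062-153. WT mice read 11.60, 12.02, 11.83, 11.90 and 11.76, while the LivPGC-1β mice lay between 12.05 and 12.22 with a median of 12.13. Every LivPGC-1β value was above every WT value, by a margin of no more than a few hundredths between the nearest mice. The raw intensities overlapped, at 3441 to 4405 in WT and 3677 to 4653 in LivPGC-1β mice. WT mice averaged 11.82 ± 0.16 (SD, n = 5) and LivPGC-1β mice 12.12 ± 0.06 (SD, n = 6), which differed by 0.30 (standard error 0.069, 95% interval 0.15 to 0.45, 1.23-fold). The adjusted p from limma was 0.0501 and the exact permutation p 0.00216, the smallest this test can give. This probe stood at the threshold itself. It was called when the quantile normalization used the named microRNAs only (0.31, adjusted p = 0.0486, limma, with 11 of 493 probes or 2.23% called higher). It was also called when only probes detected on every array were tested (adjusted p = 0.0429, 12 of 431 or 2.78% called higher) and without WT 2 (0.36, adjusted p = 0.0184, 7 of 490 or 1.43% called higher). Without normalization the difference was 0.08 (adjusted p = 0.590, limma), and with chip position as a covariate 0.17 (adjusted p = 0.804, limma).

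The candidate solexa-622-718 was the other probe with all LivPGC-1β mice on the high side. Its WT values were 10.45, 10.50, 10.59, 10.58 and 10.68, and the LivPGC-1β values had a lowest of 10.71, a median of 11.01 and a highest of 11.90, which was that of LivPGC-1β 4. The mean was 10.56 ± 0.09 (SD, n = 5) against 11.08 ± 0.42 (SD, n = 6), a difference of 0.52 (standard error 0.183, 95% interval 0.12 to 0.93, 1.44-fold, adjusted p = 0.226 from limma, exact permutation p = 0.00866). Without LivPGC-1β 4 the difference was 0.36 and the adjusted p from limma 0.0481, in a comparison that called 11 of 490 probes (2.24%) higher. Without normalization the difference was 0.34 (adjusted p = 0.308, limma), and the raw intensities overlapped, at 1431 to 1746 in WT and 1545 to 3384 in LivPGC-1β mice.

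Further candidates were higher in most but not all LivPGC-1β mice. The largest difference of all 35 was that of solexa-308-1456, whose WT values were 10.63, 10.95, 10.73, 10.70 and 11.15 and whose LivPGC-1β values had a lowest of 11.11, a median of 11.40 and a highest of 12.53. Of the 6 LivPGC-1β mice 5 were above all WT mice, and the difference was 0.80 (standard error 0.249, 95% interval 0.24 to 1.35, 1.74-fold, adjusted p = 0.181 from limma, exact permutation p = 0.0108). Without LivPGC-1β 4 it was 0.62. For the bright probe solexa-27-9416, WT mice read 13.19, 13.07, 13.30, 12.90 and 13.12 and LivPGC-1β mice 13.23, 13.43 and 14.10 at the lowest, median and highest. Here too 5 of 6 LivPGC-1β mice lay above the WT range, with a difference of 0.43 (standard error 0.153, 95% interval 0.09 to 0.77, 1.35-fold, adjusted p = 0.239 from limma, exact permutation p = 0.0173) that was 0.32 without LivPGC-1β 4.

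In solexa-284-1594 the WT values were 11.13, 11.34, 11.40, 11.72 and 11.38 and the LivPGC-1β values 11.29, 11.75 and 11.98 at the lowest, median and highest. The ranges overlapped, 4 of 6 LivPGC-1β mice were above all WT mice, and the difference was 0.31 (95% interval 0.02 to 0.59, adjusted p = 0.354 from limma, exact permutation p = 0.0563), or 0.09 without normalization and −0.09 with chip position as a covariate. The other probe on the lower side, solexa-2011-236, read 9.24, 9.58, 9.76, 9.93 and 10.45 in WT mice and 8.60, 9.21 and 9.69 at the lowest, median and highest of the LivPGC-1β mice. Only 3 of 6 LivPGC-1β mice were below all WT mice and WT 5 was highest of all. The difference was −0.63 (standard error 0.246, 95% interval −1.18 to −0.09, 1.55-fold higher in WT, adjusted p = 0.307 from limma, exact permutation p = 0.0433).

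Near the detection limit, 4 solexa candidates were detected on some arrays only. The probe solexa-2402-197 was detected in 4 of 5 WT and 6 of 6 LivPGC-1β mice, with WT values of 8.58, 8.43, 8.56, 8.69 and 8.91 and LivPGC-1β values of 8.60, 8.89 and 9.86 at the lowest, median and highest. Its difference was 0.42 (adjusted p = 0.430 from limma, exact permutation p = 0.0649), or 0.26 without LivPGC-1β 4, 0.22 without normalization and 0.75 with normexp background correction. Detection of solexa-110-3896 was found in 2 of 5 WT and 4 of 6 LivPGC-1β mice, at 8.51, 8.44, 8.54, 8.42 and 8.53 in WT mice and 8.47, 8.65 and 9.04 at the lowest, median and highest of the LivPGC-1β mice. The difference was 0.18 (adjusted p = 0.430, limma), or 0.11 without LivPGC-1β 4, 0.01 without normalization and 0.39 with normexp.

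Of the same kind was solexa-1416-339_2, detected in 1 of 5 WT and 5 of 6 LivPGC-1β mice although its values lay within a narrow range. WT mice read 8.47, 8.57, 8.40, 8.46 and 8.40 and LivPGC-1β mice 8.43, 8.51 and 8.65 at the lowest, median and highest. The difference was 0.05 (adjusted p = 0.639, limma), so that the unequal detection counts came with overlapping intensities. In solexa-4179-110, detected in 4 of 5 WT and 5 of 6 LivPGC-1β mice, WT values were 8.48, 8.67, 8.64, 8.71 and 8.63 and LivPGC-1β values 8.46, 8.69 and 9.08 at the lowest, median and highest, with a difference of 0.07 (adjusted p = 0.792, limma).

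A set of solexa probes shared 1 high array. LivPGC-1β 4 held the highest value of 14 of the 35 probes tested (40%). Among the tested probes of the named microRNAs this was so for 36 of 458 (7.86%), among the mouse-cloned microRNAs for 15 of 40 (37.5%) and among star arms for 2 of 86 (2.33%). On that array 9 of the 35 solexa probes, and 16 of the 458 named ones, exceeded every other array by more than 0.3 on the log2 scale. The widest gap among the solexa probes was that of solexa-403-1161. Its WT values were 11.15, 11.57, 11.25, 11.46 and 11.64, and the LivPGC-1β values had a lowest of 11.15, a median of 11.48 and a highest of 13.44 on LivPGC-1β 4, a gap of 1.77 to the next. Before normalization that mouse read 10120 and the other 10 between 2084 and 3420. The genotype difference of 0.33 (95% interval −0.50 to 1.15, adjusted p = 0.721, limma) became −0.013 (adjusted p = 0.993, limma) without this mouse.

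The bright probe solexa-3253-144 had WT values of 13.02, 12.95, 13.14, 13.002 and 12.94 and LivPGC-1β values of 13.01, 13.15 and 13.70 at the lowest, median and highest, the highest again on LivPGC-1β 4. Its difference of 0.20 (95% interval −0.05 to 0.45, adjusted p = 0.465, limma) was 0.10 without that mouse, 0.33 after scaling to the array median and 0.08 without normalization. The gaps of solexa-622-718, solexa-2402-197, solexa-308-1456, solexa-27-9416 and solexa-110-3896, whose values stand above, were 0.83, 0.62, 0.45, 0.32 and 0.32. A pair of further probes, chosen after their values were seen, completed the 9. These were solexa-447-1003, at 10.63 on LivPGC-1β 4 and at most 9.95 elsewhere, and solexa-200-2167, at 10.45 and at most 10.08. Their differences of 0.32 and 0.23 (adjusted p = 0.499 and 0.443, limma) were 0.16 and 0.14 without that mouse. Of the 5 solexa probes higher at an unadjusted p under 0.05, solexa-3062-153 and solexa-284-1594 were not among these 9.

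**Figure D4:**
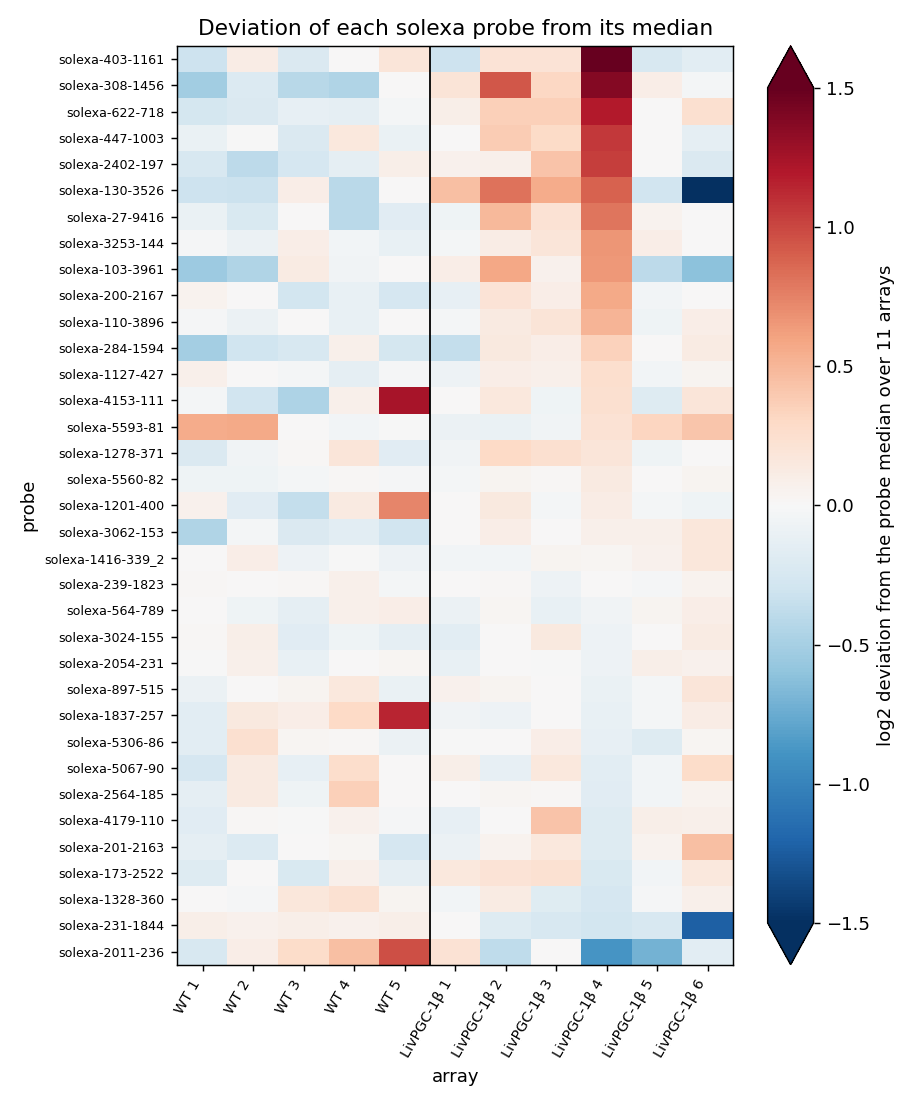
Deviation of the 35 solexa probes tested (y axis, ordered by their value on LivPGC-1β 4) from each probe's median over the 11 arrays (colour, log2), for each array (x axis; a black line parts WT from LivPGC-1β). The red cells of LivPGC-1β 4 at the top are led by solexa-403-1161, and the darkest blue cells of LivPGC-1β 6 are those of solexa-130-3526, solexa-231-1844 and solexa-103-3961, at −1.74, −1.23 and −0.61.

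Named microRNAs that stood more than 0.5 above every other array on LivPGC-1β 4 were mostly of the mouse-cloned series. There were 11 of the 458 tested, 8 of them mouse-cloned, beside 4 of 35 solexa probes, all chosen after their values were seen. Of all 36 named probes that were highest on that array, by whatever gap, 15 were mouse-cloned. The widest gaps were those of miR-715 (11.68 against at most 9.23 elsewhere, a gap of 2.45) and miR-1196 (a gap of 1.92). For 4 of the 11 a mature sequence stood under the same name in RefSeq (GRCm38.p6), and these are shown. The others, miR-715 and miR-1196 among them, had no entry under exactly the same name. Capitals mark the seed, bases 2 to 8.
mmu-miR-686: aUUGCUUCccagacggugaaga
mmu-miR-692: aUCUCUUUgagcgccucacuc
mmu-miR-703: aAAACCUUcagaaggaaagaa
mmu-miR-1187: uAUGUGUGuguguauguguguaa
The gaps of miR-686, miR-692, miR-703 and miR-1187 on LivPGC-1β 4 were 1.14, 0.98, 0.69 and 0.90. No 2 of them share a seed. They lie at chr14:54616746-54616767 on the minus strand (miR-686), chr5:98475616-98475636 on the minus strand (miR-703) and chr5:82798964-82798986 on the minus strand (miR-1187), and miR-692 has 3 loci, chr4:125504805-125504825 and chr13:74407121-74407141 on the plus strand and chr17:6895259-6895279 on the minus strand.

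Other values of LivPGC-1β 4 are given beside these. Its mean correlation with the other arrays over the 493 probes tested was 0.967, and it detected 495 probes. The other LivPGC-1β arrays had correlations of 0.978 to 0.984, and only WT 1, WT 3 and WT 5 were lower (0.960, 0.964 and 0.962). LivPGC-1β 4 was also the lowest array for 4 solexa probes, fewer than WT 1 with 7 and WT 3 with 6. Among the named probes it was lowest for 84 of 458 (18.3%), more than any other array, WT 5 being next with 73. Of the marker lists, the summed level of the 8 hepatocyte microRNAs was the lowest of all arrays there (114639 against 115232 to 119361), as was that of the 4 bile duct microRNAs (18123 against 19012 to 32582). The sum of the 4 muscle microRNAs was the second highest (5968, with 40283 on WT 1), and miR-133a, miR-133b and miR-206 each stood second. The leukocyte sum ranked 5 of 11 (60803), the erythroid sum 4 (48627) and the pancreas sum 4 (1882), and those of endothelium and of stellate cells and fibroblasts lay within the range of the other arrays. Their part in the high solexa values was not tested.

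Other mice stood apart for single candidates, which were chosen after their values were seen. WT 5 was highest by more than 0.5 for 4 of 35 solexa probes and 17 of 458 named ones. The solexa probes were solexa-4153-111 (11.07, a gap of 0.99), solexa-1837-257 (12.71, a gap of 0.85), solexa-1201-400 (10.35, a gap of 0.59) and solexa-2011-236 (10.45, a gap of 0.52). Without WT 5 the differences of the first 3 went from −0.05 to 0.23, from −0.33 to −0.12 and from −0.06 to 0.10 (adjusted p = 0.497, 0.562 and 0.654, limma), and that of solexa-2011-236 from −0.63 to −0.47. LivPGC-1β 6 was lowest by more than 0.5 for 2 of 35 solexa probes, solexa-231-1844 and solexa-130-3526, and for 3 of 458 named ones. In solexa-130-3526 WT mice read 10.15, 10.15, 10.56, 10.06 and 10.47 and LivPGC-1β mice 8.73 at the lowest, on LivPGC-1β 6, 10.97 at the median and 11.35 at the highest. The ranges overlapped, and the difference of 0.30 had a standard error of 0.431 (adjusted p = 0.789, limma). Without LivPGC-1β 6 the difference was 0.67 (standard error 0.216, adjusted p = 0.210, limma), and without LivPGC-1β 4 it was 0.14.

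The spread between mice of a genotype is given for the solexa candidates and the named microRNAs as a description with no test. The median within-genotype SD over the probes tested was 0.187 (quartiles 0.122 to 0.330) for the solexa probes, 0.156 (quartiles 0.0844 to 0.250) for the named ones and 0.198 for the mouse-cloned. Since spread was smaller for the brightest probes, the groups were also set side by side within ranges of intensity. At a mean under 10 the median SD was 0.187 for 16 solexa probes and 0.206 for 187 named ones. Between 10 and 12 it was 0.272 for 12 solexa probes and 0.202 for 118 named ones, and above 12 it was 0.102 for 7 and 0.0665 for 153. The solexa median was thus the higher in the upper ranges and the lower in the first. The middle range also held the largest median genotype difference of the solexa probes, 0.27 with 9 of 12 above 0, where the named probes had 0.01 with 62 of 118 above 0. That median was not computed without LivPGC-1β 4 or with another scaling, but the single differences moved with both. Without normalization all 12 were lower, where the median of all probes was −0.14. Then solexa-1278-371 and solexa-173-2522 went from 0.15 and 0.18 to −0.11 and −0.09. With scaling to the array median these 2 were 0.14 and 0.16. In this range LivPGC-1β 4 was the highest array for solexa-403-1161, solexa-622-718, solexa-308-1456, solexa-130-3526, solexa-284-1594 and solexa-103-3961. Without it their differences were −0.013, 0.36, 0.62, 0.14, 0.25 and 0.13, each lower than with all mice. Those of solexa-173-2522, solexa-1328-360, solexa-1837-257 and solexa-2564-185 rose, from 0.18, −0.13, −0.33 and −0.08 to 0.24, −0.09, −0.32 and −0.05.

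**Figure D5:**
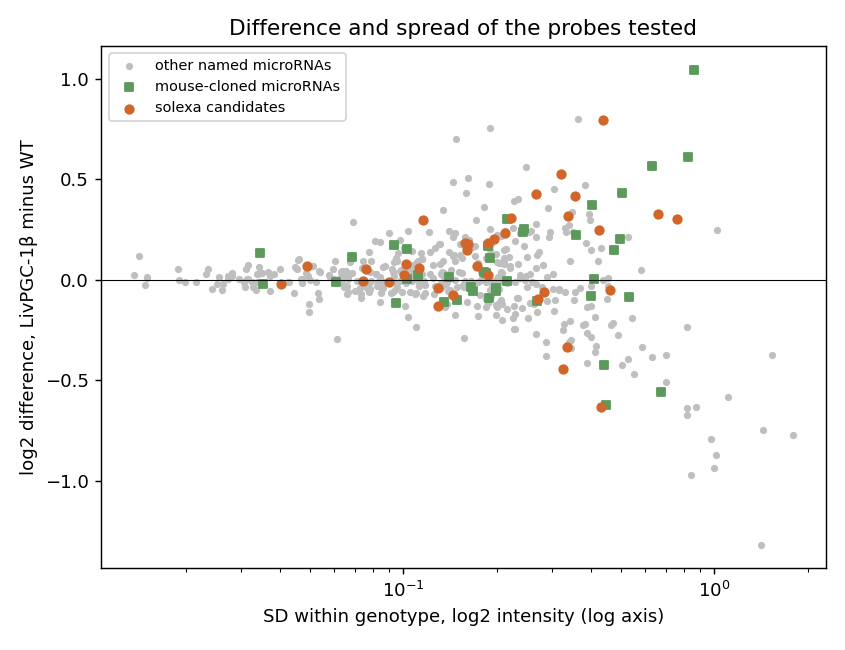
Genotype difference (y axis, log2, LivPGC-1β minus WT) against the SD within genotype (x axis, log2, logarithmic axis) for the 493 probes tested, with solexa probes, mouse-cloned microRNAs and other named microRNAs in separate colours. The 35 solexa probes lie among the others, with a median SD of 0.187 against 0.156 for the named probes.

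The remaining 13 solexa probes tested had differences between −0.13 and 0.25, 7 above 0 and 6 below, with adjusted p from 0.445 to 0.983 in limma. All 13 were detected on every array. At the upper end was solexa-103-3961, whose difference of 0.25 was 0.38 without LivPGC-1β 6 and 0.13 without LivPGC-1β 4.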

How the data were processed

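Liver RNA of 5 WT and 6 LivPGC-1β mice was hybridised to 1 Illumina Universal MicroRNA BeadChip, scanned on an iScan and processed in Genome Studio. The authors deposited the average bead intensity of each of 655 probes, neither normalized nor background subtracted, and beside it the detection p-value of each probe and array. A second table that the authors deposited holds quantile-normalized intensity on the linear scale and was used as an alternative.

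Intensities were quantile normalized over 655 probes and 11 arrays and log2 transformed. Probes detected (p of 0.01 or less) on 5 arrays or more were tested with limma 3.58.1 in R 4.3.3, with Benjamini-Hochberg adjustment over the 493 tested. The methods name GraphPad Prism for all statistics and an analysis of variance with Tukey's test for comparisons of 3 groups, and no test for this comparison of 2 groups, so limma is a choice made here. The fit was tested on simulated data. Figures used Python 3.11.15. The number of arrays limits the precision.

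Groups came from GEO's labels. Solexa probes were named with their values if called with or without LivPGC-1β 6, among the 10 smallest p, among the 5 brightest, without overlap of the genotypes, detected on some arrays only, or with 1 array far from its group. The members, marker lists and this rule were chosen with earlier results of these data known. Of the probes of the marker lists, those of erythroid cells, endothelium and stellate cells were detected on every array, and 2 of the 4 of the pancreas were.

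Alternatives were other normalizations, normexp background correction (offset 16), the authors' table, other detection filters, other variance models, array weights, a replicate block, chip position, and each mouse left out in turn. Leaving out LivPGC-1β 4 and 6, or these and WT 5, was chosen after seeing the data.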

Additional observations from a re-analysis of the deposited data

Results flagged for a closer look

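A single mouse lay far from the rest of its genotype for 4 solexa probes, by the gap to its nearest neighbour as a share of the range of the group (Dixon's ratio, critical value 0.625 for 6 mice and 0.71 for 5). In all, 70 groups of 35 probes were examined, and chance flags about 1 in 20 groups. LivPGC-1β 6 was lowest for solexa-231-1844, at 13.41 against 14.37 to 14.64 in the other LivPGC-1β mice (ratio 0.778). LivPGC-1β 4 was highest for the other 3. It read 13.44 against 11.15 to 11.67 for solexa-403-1161 (ratio 0.772), 11.90 against 10.71 to 11.07 for solexa-622-718 (ratio 0.697) and 13.70 against 13.01 to 13.23 for solexa-3253-144 (ratio 0.689).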

How the results depend on the processing

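The count of solexa probes called was 0, and it was 1 (solexa-3062-153) with quantile normalization over named microRNAs only and with probes detected on every array. Over the mice left out in turn it ran from 0 to 1, being 1 without WT 2 (solexa-3062-153), LivPGC-1β 4 (solexa-622-718) or LivPGC-1β 6 (solexa-231-1844). For the 16 probes named by the rule, 411 of 426 values kept their direction and side of the threshold. All 16 began above the threshold, so this count says little about the size of a difference. For solexa-110-3896 the value without normalization, 0.01 against 0.18, counts as kept. Differences turned without normalization to −0.084 for solexa-1416-339_2 and −0.10 for solexa-4179-110, and with scaling to the array median to 0.15 for solexa-239-1823. Chip position as a covariate turned solexa-231-1844 to 0.19, solexa-284-1594 to −0.086, solexa-1416-339_2 to −0.033, solexa-4179-110 to −0.067 and solexa-5560-82 to −0.0017. Over the mice left out, solexa-403-1161 ran from −0.013 (without LivPGC-1β 4) to 0.45 and solexa-4179-110 from −0.0081 (without LivPGC-1β 3) to 0.12. The cause was not tested. The replicate block also left out LivPGC-1β 6, since no WT mouse has that number. With it 0 solexa probes were called, and 8 were higher and 1 lower at an unadjusted p under 0.05. Mice with the same number did not deviate together (correlations from −0.13 to 0.07), so the numbers do not pair them. The higher and lower counts, 5 and 2, were 4 and 4 with cyclic loess, 7 and 0 with array weights, 0 and 1 with chip position, and 7 and 1 without LivPGC-1β 4 and 6 or also without WT 5. Without WT 5 they were 5 and 0, without WT 4 they were 7 and 0, and without LivPGC-1β 1 they were 8 and 2. Signal near background limits the 4 probes detected on some arrays and the 9 on none.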
